A study of Rattus norvegicus with 12 samples.

Results

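Cathepsin L (Ctsl), its inactive relative Testin, the cystatin genes Cst12 and Cst3 and 4 further lysosomal proteases were followed through prepubertal rat testes. The 4 were Ctsb, Ctsd, Ctsh and Ctss, and the exposures were soy protein and estradiol. These 8 genes were selected by symbol with earlier results of these arrays known: the log2 values of Ctsl, Testin and Cst12 in the estradiol groups had already been seen. For these 3 genes every comparison that uses the estradiol arrays is therefore given as a description with no test. The other 5 genes carry the test in every comparison, and all 8 carry it between soy and casein without estradiol. The platform annotation gave the 8 genes 9 probe sets that carry 1 of these symbols alone, of 31099 probe sets and 14218 named genes on the array. Ctsl was read by 2 of them and each other gene by 1, and all 9 passed the filter on low values.

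The 12 arrays held testis RNA of male Sprague-Dawley rats collected on postnatal day 34, 3 arrays to a group. The dams nursed on a casein diet, and the pups were weaned on day 21 to an AIN-93G diet made with casein, to the same casein diet plus 17beta estradiol from a subcutaneous minipump (10 µg/kg daily), to the diet with soy protein isolate (SPI) in place of casein, or to the soy diet with the same infusion, until day 33. Vehicle pumps, pooling of animals and separate extractions were not described in the sources used here, so all p-values measure only the spread between these arrays, which may be technical. Whole testis holds germ, Sertoli, Leydig, peritubular and blood-borne cells, and in such bulk RNA fewer cells of a type and less RNA per cell cannot be told apart.

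Cathepsins are proteases of the lysosome, made as inactive precursors that are cut to the active enzyme. B, H, L and S are cysteine proteases of the papain family and D is an aspartic protease, and cystatins are small proteins that block the cysteine type by filling its active site. In the rat testis procathepsin L and Testin are known as secreted products of Sertoli cells, the somatic cells that hold and feed the germ cells. Testin resembles cathepsin L but lacks protease activity and is known to gather at junctions between Sertoli and germ cells. Ctsh and Ctss are also abundant in macrophages and other antigen-presenting cells.

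The RefSeq promoter table for the GRCr8 assembly, which spans 250 bases before to 50 after each start site, held 7 of the 8 genes. The promoters of the 3 genes that were higher with estradiol and of Ctsh, which was lower, are shown so that their letters can be compared. Capitals mark matches on either strand to any of the motifs searched.

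Ctsl, chr17:769854-770153, plus strand: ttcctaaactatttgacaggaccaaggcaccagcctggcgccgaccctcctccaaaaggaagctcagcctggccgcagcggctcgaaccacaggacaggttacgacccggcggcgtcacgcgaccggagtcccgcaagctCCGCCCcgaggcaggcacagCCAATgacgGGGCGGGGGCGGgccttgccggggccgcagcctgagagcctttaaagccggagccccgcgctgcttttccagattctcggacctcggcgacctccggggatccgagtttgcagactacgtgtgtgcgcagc
Testin, chr17:3852259-3852558, plus strand: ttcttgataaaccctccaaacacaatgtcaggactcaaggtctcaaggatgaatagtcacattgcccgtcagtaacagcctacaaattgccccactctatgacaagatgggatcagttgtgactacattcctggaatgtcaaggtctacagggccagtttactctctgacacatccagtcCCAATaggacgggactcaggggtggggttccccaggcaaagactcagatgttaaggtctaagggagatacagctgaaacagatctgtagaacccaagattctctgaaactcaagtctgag
Cst12, chr3:156687942-156688241, plus strand: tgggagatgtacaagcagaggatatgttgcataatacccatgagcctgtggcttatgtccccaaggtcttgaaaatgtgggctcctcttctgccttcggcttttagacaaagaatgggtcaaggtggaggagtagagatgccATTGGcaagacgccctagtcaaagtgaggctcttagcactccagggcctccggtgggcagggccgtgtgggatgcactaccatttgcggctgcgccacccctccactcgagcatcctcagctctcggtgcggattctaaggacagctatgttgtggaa
Ctsh, chr8:99488506-99488805, plus strand: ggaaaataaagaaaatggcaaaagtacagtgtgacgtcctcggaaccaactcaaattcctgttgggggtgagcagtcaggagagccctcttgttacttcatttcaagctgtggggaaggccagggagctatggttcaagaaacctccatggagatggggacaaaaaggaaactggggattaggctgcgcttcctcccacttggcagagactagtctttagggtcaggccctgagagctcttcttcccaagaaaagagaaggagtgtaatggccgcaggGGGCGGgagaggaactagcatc

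The Ctsl window was 66.7% G and C, against 47.0% for Testin, 54.3% for Cst12, 51.3% for Ctsh and a median of 51.7% over 33469 promoters of 300 bases. The Ctsl window held 3 GC boxes (GGGCGG), beginning at positions −110, −81 and −75 relative to the start site, and a CCAAT box at −90. A GC box was present in 33.1% of all promoters and a CCAAT box in 37.5%. Testin and Cst12 each held 1 CCAAT box, at −70 and −108 and on opposite strands, and no GC box. Ctsh held 1 GC box, after the start site, and no CCAAT box. The estrogen response element (GGTCA and TGACC with any 3 bases between), present in 0.0269% of promoters, had no match in any of the 7 windows. Its single arm (AGGTCA, 16.2% of promoters) matched only in Ctss among the 7, at −142, and can overlap the full element. The E-box of lysosomal genes (CACGTG, 6.42% of promoters, a palindrome) matched only in Ctsd among the 7, at −157 and −10. Searches for one arm of the androgen response element (AGAACA, 20.7%) matched in Cst3 and Ctsd, and for the TATA box (TATAAA, 14.2%) in Ctss. The cAMP response element (TGACG followed directly by TCA, a palindrome, 1.83%), the AP-1 site (TGAGTCA, 4.63%), the SOX site (AACAAT, 11.7%) and the GATA site (AGATAA, 11.6%) had no match in the 7 windows. A match is a description of letters, and its absence says only that the letters are not in this window.

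Among protein-coding genes of the same assembly, Testin, Cst12, Cst3 and Ctss have a relative among the nearest 3 on either side, and Ctsl, Ctsb, Ctsd and Ctsh have none. Testin has cathepsin-like genes near it on chromosome 17, with Ctsml1 on 1 side, beside Tpbpa and Ctla2a, and Ctsll3 and Cts7l2 on the other. Cst12 and Cst3 belong to a row of cystatin genes on chromosome 3, in which Cst8 is the neighbour of Cst12. Ctss lies near the cathepsin gene Ctsk on chromosome 2. Which of these relatives could share signal with a member's probe set was not tested.

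The Ctsl probe set with the higher mean read 10.53, 10.55 and 10.51 log2 in casein and 10.49, 10.41 and 10.52 in soy. It read 11.84, 11.97 and 12.24 in casein with estradiol and 12.51, 11.91 and 12.13 in soy with estradiol. Every array with estradiol lay above every array without it, and the diets overlapped within each level of estradiol. The share of all probe sets that separated the arrays in this way was not counted, here or for the genes below. The group means were 10.53 ± 0.02 (SD, n = 3), 12.01 ± 0.20, 10.47 ± 0.06 and 12.18 ± 0.30 in the order casein, casein with estradiol, soy, soy with estradiol. The estradiol difference was 1.49 (SE 0.13) on casein, a 2.80-fold level, and 1.71 (SE 0.13) on soy, a 3.28-fold level. The other Ctsl probe set differed less, by 0.80 (SE 0.20) on casein and 0.97 (SE 0.20) on soy, or 1.74-fold and 1.95-fold. Its arrays read 7.50 to 7.74 in casein, 8.22 to 8.69 in casein with estradiol, 7.15 to 7.73 in soy and 7.98 to 8.85 in soy with estradiol, so it too separated the arrays by estradiol.

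Testin read 6.34, 6.40 and 6.37 log2 in casein and 8.36, 8.02 and 8.44 in casein with estradiol. In soy it read 5.96, 5.80 and 6.51, and in soy with estradiol 8.64, 8.22 and 8.42. Again all 6 arrays with estradiol lay above the 6 without. The difference was 1.90 (SE 0.17) on casein, or 3.73-fold, and 2.34 (SE 0.17) on soy, or 5.05-fold, the largest of the 8 genes on either diet. Arrays of soy spread most (6.09 ± 0.37, n = 3) and their lowest value lay near 5.69 log2, the level of the filter, below which values may be near background.

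**Figure D1:**
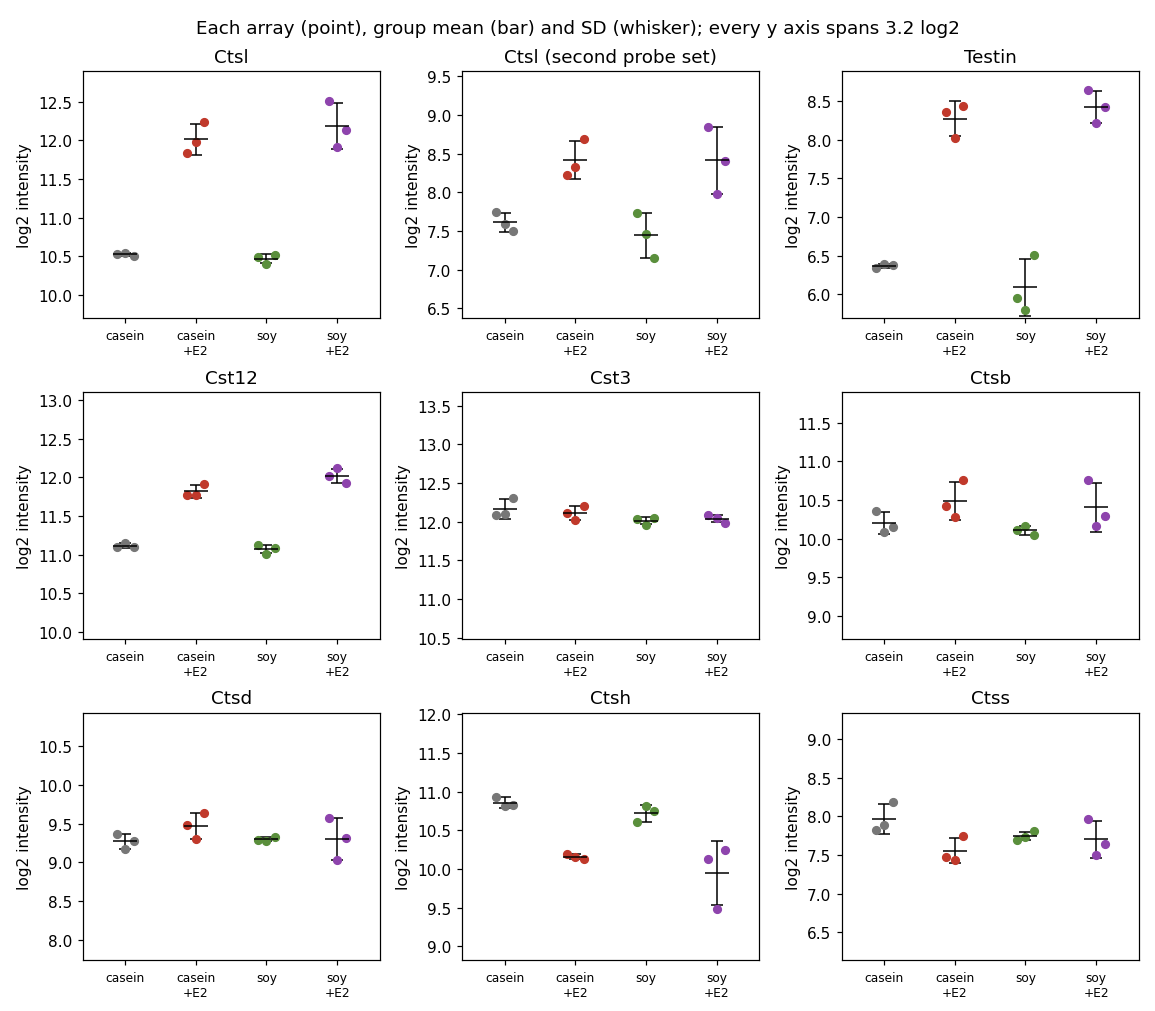
Log2 intensity (y axis, each panel spanning the same range) of the 9 member probe sets in casein, casein with estradiol (+E2), soy and soy with estradiol; points are arrays, bars group means and whiskers SD (n = 3). Ctsl, Testin and Cst12 sit higher with estradiol, Ctsh sits lower, and Cst3 stays between 11.96 and 12.31.

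Cst12, a cystatin-type gene known from Sertoli cells, read 11.09, 11.16 and 11.10 log2 in casein and 11.77, 11.77 and 11.92 in casein with estradiol. It read 11.12, 11.01 and 11.09 in soy and 12.02, 12.11 and 11.93 in soy with estradiol. Its groups were tight, with SDs of 0.03 to 0.09, and estradiol separated them fully. The difference was 0.70 (SE 0.07) on casein, or 1.62-fold, and 0.95 (SE 0.07) on soy, or 1.93-fold. The order of the group means was soy (11.07), casein (11.12), casein with estradiol (11.82) and soy with estradiol (12.02), of which the first 2 overlapped.

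Cst3 encodes cystatin C, a secreted inhibitor made by many cell types, and it did not pass the test. It read 12.08 to 12.31 log2 in casein, 12.02 to 12.21 in casein with estradiol, 11.96 to 12.04 in soy and 11.99 to 12.08 in soy with estradiol. The estradiol difference was −0.05 on casein (95% interval −0.21 to 0.11, adjusted p = 0.607) and 0.02 on soy (−0.14 to 0.18, adjusted p = 0.803), in the limma fit across all probe sets. With arrays centred on their medians in place of quantile normalization, the casein difference became −0.21 and passed (adjusted p = 0.0397), and the soy difference turned to −0.06. Within each array Ctsl minus Cst3, the protease against this inhibitor on the log2 scale, moved by 1.54 with estradiol on casein and by 1.69 on soy. Ctsl minus Cst12 moved by 0.79 and 0.77, and whether Cst12 blocks cathepsin L was not tested.

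Among the 5 members whose estradiol differences were tested, 0 rose and 2 fell on casein, and 0 rose and 1 fell on soy. Over all 21729 probe sets tested at an adjusted p under 0.05, 21.9% were higher and 19.9% lower on casein, and 25.3% higher and 24.3% lower on soy. The median difference of these 5 members, without Ctsl, Testin and Cst12, was −0.05 on casein and 0.01 on soy, against 0.02 and −0.02 over all probe sets. Calls were therefore common in both comparisons, and counts out of 5 are too few to set the members apart from the whole array.

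Ctsh, an aminopeptidase among the cathepsins, went the opposite way to Ctsl. It read 10.93, 10.82 and 10.82 log2 in casein and 10.20, 10.16 and 10.13 in casein with estradiol, and it fell by 0.70 (SE 0.15, adjusted p = 0.00323 in limma), a 1.62-fold decrease. In soy it read 10.60, 10.82 and 10.74 and with estradiol 10.13, 9.48 and 10.24, and it fell by 0.77 (SE 0.15, adjusted p = 0.00151), or 1.71-fold. Every array with estradiol lay below every array without. Replicate 2 of soy with estradiol was the lowest of all, and without it the fall on soy was 0.54 (adjusted p = 0.000337). Ctsl minus Ctsh within arrays moved by 2.19 on casein and 2.48 on soy.

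Ctss, which processes the invariant chain in antigen-presenting cells, read 7.83, 7.88 and 8.18 log2 in casein and 7.48, 7.44 and 7.74 in casein with estradiol. It fell by 0.41 on casein (SE 0.13, adjusted p = 0.0213), and every array with estradiol lay below every array without. This call was lost without some single arrays. When casein replicate 3 was dropped the difference was −0.30 (SE 0.13, adjusted p = 0.0995 in limma). When replicate 1 or replicate 2 of the casein group with estradiol was dropped, the difference moved less and its SE grew. It was −0.37 (SE 0.15, adjusted p = 0.0715) or −0.35 (SE 0.14, adjusted p = 0.0704). On soy it read 7.70 to 7.81 without and 7.50 to 7.97 with estradiol and differed by −0.04 (adjusted p = 0.807), which turned to 0.06 with the values as deposited. The test of that contrast between diets gave 0.37 (SE 0.18, adjusted p = 0.260), so the diets were not shown to differ. With array weights in the fit it passed (adjusted p = 0.0446).

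Markers of macrophages and leukocytes were counted beside Ctss. Of 12 measured 0 rose and 7 fell on casein, and 1 rose and 2 fell on soy. The medians were −0.36 and −0.02, against 0.02 and −0.02 for all probe sets. The array as a whole had 21.9% higher and 19.9% lower on casein, and 25.3% higher and 24.3% lower on soy. On soy, where Ctss was not called, Adgre1 fell by 0.99 and Aif1 by 0.54. Cd74, the invariant chain, differed by 0.01 on casein and rose by 1.16 on soy. The log2 of the summed level of the 12 markers ran from 12.56 to 12.68 in casein and 11.86 to 12.17 in casein with estradiol. It ran from 12.51 to 12.65 in soy and 12.31 to 12.41 in soy with estradiol. Aif1 weighed most in this sum, with a mean of 11.85 in casein, where the next highest marker, Mrc1, had 8.82. Aif1 fell on both diets, by 0.84 on casein, so the sum says little of the other markers. Ptprc, the pan-leukocyte marker, Itgam and Cd163 had means below the filter level over the 12 arrays. Looked up after the values were seen, the gene whose profile over the 12 arrays lay closest to Ctss among 11769 others was C1qc, a complement subunit of macrophages. The root mean square difference between profiles centred on their own means was 0.097 log2, where Ctss itself had an SD of 0.21 over the arrays. Pck2 followed at 0.098, then RT1-S3, Cd68, Dhps and Tpd52l1 at 0.10 to 0.11. Of these, Cd68 is a macrophage lysosomal protein. What part macrophages and leukocytes had in the Ctss values was not tested.

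Ctsb and Ctsd, broadly expressed lysosomal proteases, were not called with estradiol on either diet. Ctsb read 10.09 to 10.36 log2 in casein and 10.28 to 10.76 in casein with estradiol, a difference of 0.29 (95% interval −0.04 to 0.61, adjusted p = 0.141). On soy it read 10.05 to 10.16 and 10.17 to 10.76, a difference of 0.30 (−0.03 to 0.62, adjusted p = 0.113). Ctsd differed by 0.20 on casein (−0.07 to 0.46, adjusted p = 0.207) and by 0.01 on soy (−0.26 to 0.27, adjusted p = 0.963), with arrays between 9.03 and 9.63. With the values as deposited the casein differences were 0.16 for Ctsb and 0.12 for Ctsd. On casein both passed with array weights (adjusted p = 0.0133 for Ctsb and 0.00867 for Ctsd) and when replicate 2 of casein with estradiol was left out together with replicate 1 of soy with estradiol (adjusted p = 0.0125 for Ctsb and 0.0298 for Ctsd). Without soy with estradiol replicate 2, Ctsb also passed on soy, at 0.42 (adjusted p = 0.0338).

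**Figure D2:**
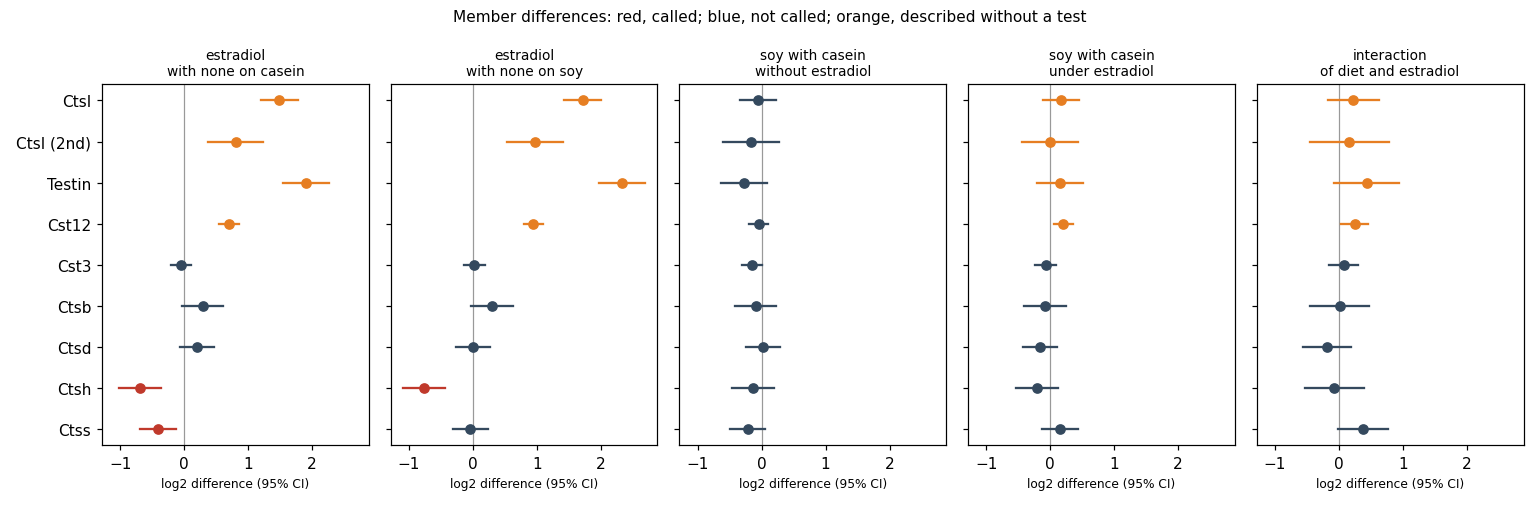
Log2 differences (x axis) of the 9 member probe sets (y axis) in 5 comparisons, as points with 95% intervals from the limma fit. Red passed the test, blue did not and orange is described without one. Orange intervals belong to values that led to the choice of these genes, so their place relative to 0 is no test. Ctsl, Testin and Cst12 lie right of 0 with estradiol on both diets and Ctsh left of 0, while no member tested between diets was called.

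Soy with casein, without estradiol, asked whether the soy diet alone moved these genes, and limma called 0 of the 9 member probe sets, with 0 at an unadjusted p under 0.05. Over the array 9.73% of probe sets were called. The differences ran from −0.28 for Testin (95% interval −0.64 to 0.08, adjusted p = 0.330) to 0.03 for Ctsd, with a median of −0.14 against −0.02 for all probe sets. Ctsl differed by −0.06 (−0.34 to 0.23, adjusted p = 0.850) and Cst12 by −0.04 (−0.19 to 0.11, adjusted p = 0.770). The 3 soy arrays lay below the 3 casein arrays for Cst3 (−0.15, adjusted p = 0.234) and for Ctss (−0.22, adjusted p = 0.321). How many of all probe sets separated these arrays was not counted, so this is a description only. With the values as deposited all 9 were negative: Ctsd turned to −0.12, and Ctsl moved to −0.17, Cst12 to −0.13 and Ctsb to −0.22, none of them called. Testin passed with array weights (−0.36, adjusted p = 0.0456) and Cst3 with arrays centred on medians (−0.23, adjusted p = 0.0466).

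Between soy and casein under estradiol, limma called 0 of the 5 members tested, with 0 at an unadjusted p under 0.05, where 1 probe set of the whole array (0.0046%) was called. Ctsh had the lowest value, −0.21 (adjusted p = 0.570), and Ctss the highest, 0.15 (adjusted p = 0.639). The values of the other 3 genes are described only. Cst12 differed by 0.20 (SE 0.07), and its 3 soy arrays (11.93 to 12.11) lay above its 3 casein arrays (11.77 to 11.92). Ctsl differed by 0.17 (SE 0.13) and Testin by 0.15 (SE 0.17), and the arrays of both diets overlapped.

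The interaction of diet and estradiol, taken as the soy difference less the casein difference, gave 0 calls among the same 5 members, with 0 at an unadjusted p under 0.05, against 3.41% of all probe sets called by limma. Ctss had 0.37 (95% interval −0.02 to 0.76, adjusted p = 0.260) and Ctsd −0.19 (−0.57 to 0.18, adjusted p = 0.548). Cst3, Ctsb and Ctsh lay between −0.07 and 0.07, and Ctsh turned to 0.03 with the values as deposited. As a description, the value was 0.44 (SE 0.24) for Testin, 0.25 (SE 0.10) for Cst12 and 0.23 (SE 0.18) for Ctsl. With the deposited values these 3 were 0.35, 0.32 and 0.34.

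Within groups, single arrays were often highest or lowest for several members at once. In soy with estradiol, replicate 1 was the highest of the 3 arrays for 6 of the 8 genes (Ctsl, Testin, Cst3, Ctsb, Ctsd and Ctss), and replicate 2 was the lowest for 6 (Ctsl, Testin, Ctsb, Ctsd, Ctsh and Ctss). In casein with estradiol, replicate 3 was the highest for 7, all but Ctsh. In soy without estradiol, replicate 3 was the highest for 5 and replicate 2 the lowest for 5, and in casein no array was the highest for more than 3. Cst12 departed from the others in soy with estradiol, where it was highest in replicate 2, with a deviation of 0.09 from its group mean, while Ctsl deviated there by −0.27 and Ctsh by −0.47.

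The mean log2 level of 11 measured Sertoli cell markers moved with that spread. It was 9.79, 9.31 and 9.56 in replicates 1 to 3 of soy with estradiol and 9.61, 9.48 and 9.79 in casein with estradiol, against at most 9.12 in the 6 arrays without. When the Sertoli mean was taken off in each array, the SD in soy with estradiol went from 0.30 to 0.07 for Ctsl and from 0.27 to 0.03 for Ctsd. It went from 0.24 to 0.05 for Ctss and from 0.21 to 0.04 for Testin. For Cst12 it went the other way, from 0.09 to 0.30, and for Cst3 from 0.05 to 0.23. In casein with estradiol the SD went from 0.20 to 0.14 for Ctsl, from 0.17 to 0.02 for Ctsd, from 0.16 to 0.05 for Ctss and from 0.22 to 0.10 for Testin. There Cst12 hardly moved (0.086 to 0.089), Cst3 went down from 0.10 to 0.06, and Ctsh went up from 0.03 to 0.18. In soy without estradiol the SD went up for every member but Ctsb (0.058 to 0.047). For Ctsl it went from 0.06 to 0.08 and for Testin from 0.37 to 0.41. In casein without estradiol it moved little and both ways, as from 0.19 to 0.21 for Ctss and from 0.143 to 0.135 for Ctsb. Across all tested probe sets 21.9% rose and 19.9% fell on casein, and 25.3% rose and 24.3% fell on soy. Of the 11 Sertoli markers 8 rose and 1 fell on casein and 8 rose and 0 fell on soy, with medians of 0.51 and 0.57, against 0.02 and −0.02 for all probe sets. They included Cldn11, a tight junction claudin, higher by 0.86 and 0.77, Wt1, a transcription factor of Sertoli cells, by 0.63 and 0.74, and Kitlg, the ligand of Kit, by 0.71 and 0.86. The 1 that fell on casein was Rhox5, an X-linked homeobox gene, by 0.29. Sox9, Fshr and Tf were not analysed here, and Gdnf was below the filter.

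**Figure D3:**
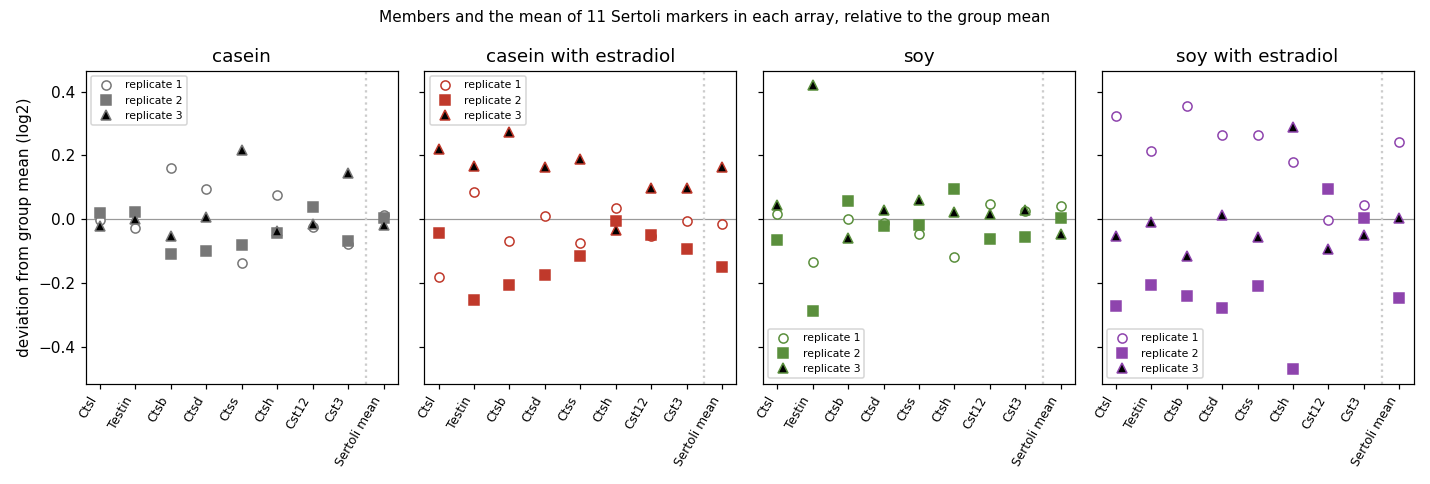
Deviation of each array from its group mean in log2 (y axis) for the 8 genes and for the mean of 11 Sertoli markers (x axis), with a symbol for each replicate and a panel for each group. In soy with estradiol, replicate 1 lies high and replicate 2 low for Ctsl, Testin, Ctsb, Ctsd, Ctss and the Sertoli mean, and Cst12 lies highest in replicate 2.

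Relative to the Sertoli marker mean of the same array, the members separated. Ctsl still moved up with estradiol, by 0.97 on casein and 1.21 on soy, and Testin by 1.38 and 1.83. Cst12 moved by 0.18 and 0.44, less than its absolute difference. Ctsb moved by −0.23 and −0.21, Ctsd by −0.32 and −0.50, Cst3 by −0.57 and −0.48, Ctss by −0.93 and −0.55 and Ctsh by −1.22 and −1.28. These are within-array ratios and show unequal change among the genes.

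Markers of other cells changed in the same arrays, where 21.9% of all probe sets rose and 19.9% fell on casein. On soy these shares were 25.3% and 24.3%. All 10 measured spermatid markers fell on casein and 9 of 10 on soy, with medians of −0.77 and −0.66. Their summed level on the log2 scale was 16.71 to 16.80 in casein, 15.68 to 16.30 in casein with estradiol, 16.70 to 16.75 in soy and 15.92 to 16.40 in soy with estradiol. Of 7 Leydig markers 1 rose and 4 fell on casein and 1 rose and 5 fell on soy, and of 5 peritubular markers 0 were called on either diet. The array with the lowest spermatid sum in each estradiol group, replicate 3 on casein and replicate 1 on soy, was also the one where Ctsl was highest. Replicate 1 of soy with estradiol further carried Adam7, a gene of the epididymis, at 9.39 log2 against 5.17 to 6.03 in the other 11 arrays. Car3, a carbonic anhydrase of fat and muscle, marked more arrays: it read 5.02 to 5.58 in casein, 6.88 to 9.84 in casein with estradiol, 5.43, 9.71 and 7.30 in soy and 9.91, 7.44 and 10.08 in soy with estradiol. Its part in the member values was not tested. Without the array high in Adam7, the estradiol difference on soy was 1.55 for Ctsl, 2.23 for Testin and 0.94 for Cst12. The part of cell composition in these differences was not tested.

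Of 14 further cathepsin genes listed, 7 were measured, 4 lay below the filter and 3 were not analysed here. On casein 0 rose and 0 fell over the fit, where 21.9% of all probe sets rose and 19.9% fell. The smallest p was that of Ctsa, a carboxypeptidase, with a difference of 0.37 (adjusted p = 0.0857 in limma). At an unadjusted p under 0.05 the count was 1. On soy 2 of 7 rose, where 25.3% of all probe sets did: Ctso by 0.89 (to a mean of 6.88, adjusted p = 0.000403) and Ctsf by 0.21 (adjusted p = 0.0381). Ctso was also the 1 cathepsin that fell on soy without estradiol, by 0.49 (adjusted p = 0.0427), and its estradiol effect was not shown to differ between diets (0.71, adjusted p = 0.0647). Ctsk, the gene near Ctss known from osteoclasts, differed by 0.35 and 0.33 and was not called.

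Of 15 further cystatin-family genes 4 were measured. Cst8, the neighbour of Cst12 and known from epididymis and germ cells, fell by 0.83 on casein (from 10.81 to 9.98, adjusted p = 0.00146) and by 0.49 on soy (adjusted p = 0.0195), where Cst12 was higher on both diets. Cstb, the intracellular inhibitor cystatin B, fell by 0.29 on casein (adjusted p = 0.0460) and differed by 0.25 on soy (adjusted p = 0.0713). The measured Cst6 and Ahsg were not called in either comparison.

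Other lysosomal proteins moved in both directions. Of 33 measured 12 rose and 6 fell on casein, with a median of 0.20, and 14 rose and 5 fell on soy, with a median of 0.11, against 0.02 and −0.02 for all probe sets. Over the whole array 21.9% of probe sets rose and 19.9% fell on casein, and 25.3% rose and 24.3% fell on soy. The 2 comparisons share no arrays, and 11 genes rose in both, which is 91.7% of the rises on casein and 78.6% of those on soy. The same overlap was not counted over all probe sets, so it is not shown to be particular to lysosomal genes. Tpp1, a tripeptidyl peptidase, rose by 0.78 and 1.04, and Igf2r, a receptor that carries enzymes to lysosomes, rose by 0.91 and 0.63. Asah1, the acid ceramidase, fell by 1.00 and 1.09. Ids, a sulfatase, rose by 0.60 and 0.79, and Lgals3, a galectin also known from macrophages, fell by 0.56 and 0.34.

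Secreted inhibitors of other protease classes and other secreted proteases were mixed. Of 11 inhibitors 3 rose and 1 fell on casein and 5 rose and 1 fell on soy, with medians of −0.05 and 0.29. Over all probe sets tested 21.9% rose and 19.9% fell on casein, and 25.3% rose and 24.3% fell on soy. Timp3, a matrix metalloproteinase inhibitor, rose by 0.60 and 0.66 and Timp2 by 0.27 and 0.44, while Timp1 fell by 0.73 and 0.33. Serpina5, a serine protease inhibitor of the male tract, rose by 0.67 and 0.45. Of 12 other proteases 3 rose and 1 fell on casein and 4 rose and 1 fell on soy, with medians of 0.10 and 0.15. Mmp14, a membrane metalloproteinase, rose by 0.35 and 0.31. The rises count Adamts1, a secreted metalloproteinase, whose casein and soy means of 5.51 and 5.12 lay below the filter level and which passed the filter only through its estradiol arrays. Without it 2 of 11 rose on casein and 3 of 11 on soy.

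**Figure D4:**
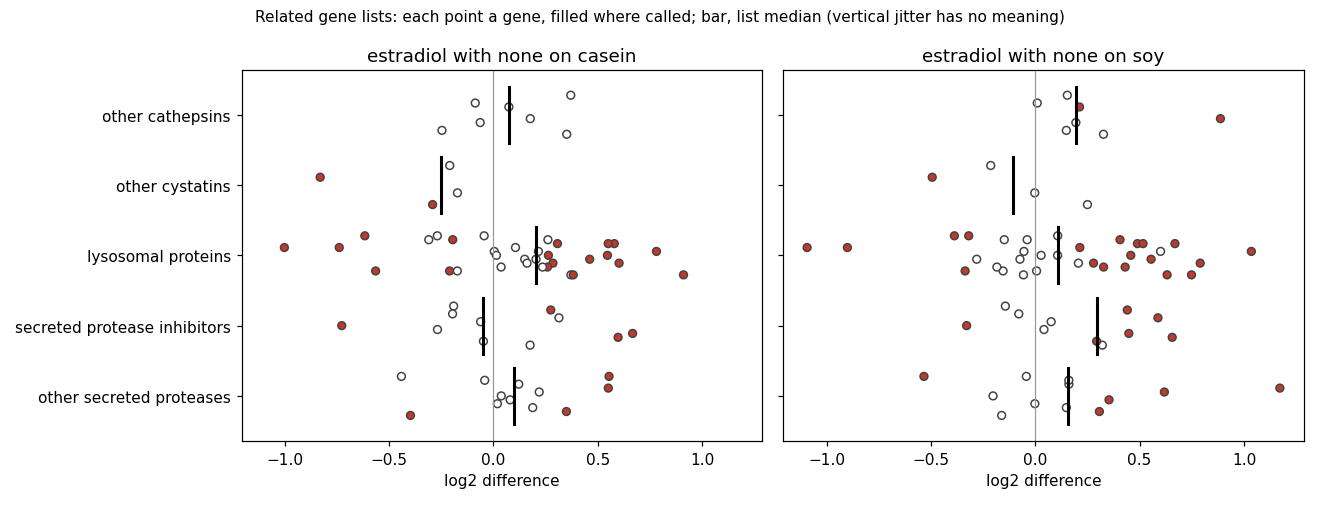
Log2 difference with estradiol (x axis) on casein and on soy for the measured genes of 5 related lists (y axis); filled points passed the test and bars are list medians. Lysosomal proteins lie on both sides of 0, with medians of 0.20 and 0.11, and the other cathepsins hold 0 calls on casein and 2 on soy.

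The genes most like each leading member were found by the root mean square difference between profiles over the 12 arrays, each centred on its own mean, as a description among 11769 genes. For Ctsl the nearest was Wfdc10a, a gene of the whey acidic protein inhibitor family, at 0.21 log2, where Ctsl itself had an SD of 0.82 over the arrays. Nxpe2 (0.29), Myh6 (0.29), Ildr2 (0.30), Ccnd2 (0.30) and Cttnbp2 (0.30) followed. Wfdc10a differed with estradiol by 1.04 on casein and 1.47 on soy. For Testin the same 6 genes were nearest, led by Myh6, a cardiac myosin heavy chain, at 0.30 against an SD of 1.08, with the others at 0.45 to 0.58. Testin and Ctsl themselves lay 0.32 apart. For the other members the nearest genes were looked up after their values were seen. The nearest to Cst12 were Zc3h13, Rimoc1 and Siae, at 0.06 to 0.07. Ctsh lay nearest to Tpi1 (0.11), a glycolytic enzyme, and had the lysosomal sialidase gene Neu1 among its nearest 6, which fell by 0.74 and 0.90.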

How the data were processed

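The deposited table holds a log2 intensity per probe set and array. GCOS, the Affymetrix software, is named without a version per the submitters' processing notes, and no source used here gives the background correction, summarisation or normalization. The log2 scale was read from the values (2.80 to 14.64), and the median of the arrays lay between 6.72 and 6.79. The arrays of a group correlated at 0.988 to 0.997. Quantile normalization was applied, 57 control probe sets were removed along with the dimmest 30% by mean over all arrays, and 21729 were tested in limma 3.58.1 (R 4.3.3). All 4 groups entered 1 fit (lmFit, eBayes with trend), with Benjamini-Hochberg adjustment per comparison and calls at 0.05. The fit was tested on simulated data. The number of arrays limits the precision, with a median SE of 0.092 log2.

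A listed gene was represented by its probe set with the highest mean, and probe sets with several symbols named no gene. All 8 members matched the rat gene table by Entrez ID. The members, gene lists, motifs and alternatives were chosen with earlier results of these data known. Named genes were all members, the 6 genes nearest to Ctsl and to Testin, and up to 3 genes per list with the smallest p in each estradiol comparison. Other list genes, and the genes nearest to Cst12, Ctsh and Ctss, were chosen after their values were seen. The 2 estradiol comparisons share no arrays with each other, nor do the 2 diet comparisons, and all other pairs share some. Tests of Ctsl, Testin and Cst12 under estradiol and in the interaction, planned at first, were dropped because they use the values that led to the choice of these genes.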

Additional observations from a re-analysis of the deposited data

How the results depend on the processing

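The 29 member results with a test were recomputed under 21 alternatives, 609 values in all, of which 597 kept their side of the threshold, 3 lost a call, 9 gained one and 0 called values reversed. The estradiol differences of Ctsl, Testin and Cst12 kept their sign in every alternative run. That describes how far processing moved values already seen on the same arrays, and it adds no support. Over left-out arrays Ctsl ranged from 1.38 to 1.58 on casein and 1.55 to 1.85 on soy, Testin from 1.81 to 2.03 and 2.20 to 2.56, and Cst12 from 0.65 to 0.73 and 0.90 to 0.99. The mean of both Ctsl probe sets gave 1.15 on casein and 1.34 on soy. Cst12 on casein was 0.56 with deposited values and 0.52 with arrays centred on medians, and on soy it was 0.87 centred on medians and 0.87 with array weights. The cause of these shifts was not tested.

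Counts of called probe sets over the array moved more. Soy with casein without estradiol (2114) gave 3934 with deposited values, 4566 centred on medians, 1236 with a 50% filter, 3414 with only the groups compared and 5171 with array weights, and 1000 to 2819 without 1 array. Soy with casein under estradiol (1) gave 0 with a 50% filter, 0 with only the groups compared, 499 with array weights, 707 when replicate 2 of casein with estradiol was left out together with replicate 1 of soy with estradiol, and 0 to 373 without 1 array. The interaction (741) gave 1244 centred on medians, 434 with a 50% filter, 3318 with array weights and 156 to 1049 without 1 array. With the replicate number as a replicate block, soy with casein under estradiol gave 0 and the interaction 393. Same-numbered arrays had deviations correlated at −0.36 to 0.35, above 0.1 in 4 of 18 pairs, so the numbers were not taken to pair the arrays, and 4 of 12 arrays correlated best with their own number.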
